A study of Mus musculus with 12 samples.

Results

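DXM and Rhy were compared directly in mice with DSS colitis, across all genes and without the libraries of mice that received no drug. RNA-Seq libraries from 6 of the 12 colons in the series entered the comparison, 3 from mice given DXM with DSS and 3 from mice given Rhy with DSS. All 6 mice were male WT C57BL/6J animals, from a cohort that was 5 weeks old, and all had received DSS (dextran sodium sulfate), which damages the lining of the colon, so neither group is an untreated colon. DXM (dexamethasone) was given at 4 mg/kg, in the acute form of the colitis model. Rhy (rhynchophylline) was given in the study at 2, 4 or 8 mg/kg, and the dose of the sequenced Rhy mice is not given in the sources used here. The 2 drugs can therefore not be set against each other at a matched dose. The RNA came from sections of excised colon, with all cell types mixed, and where along the colon the sections were cut is not given in the sources used here. The labels give 3 separate samples a group without saying which mouse each came from, so p-values and standard errors measure only the spread between these samples, which may be technical.

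DXM is a synthetic glucocorticoid. It binds the glucocorticoid receptor, encoded by Nr3c1, which moves to the nucleus, raises genes such as Tsc22d3, Fkbp5, Per1, Sgk1 and Zbtb16 in many tissues, and restrains transcription of cytokine and interferon-response genes. Rhy is an oxindole alkaloid of Uncaria plants, and the study examined it in relation to the aryl hydrocarbon receptor (AhR), whose classic target is the monooxygenase gene Cyp1a1. Interferon-stimulated genes encode antiviral effectors that are switched on through STAT proteins and interferon regulatory factors, and in the gut they are expressed by the epithelium as well as by immune cells. Absorptive cells of the colon carry a brush border of microvilli and express many enzymes that handle lipids, steroids and drugs.

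The libraries held 14346478 to 16303944 counts in the Rhy group and 16072006 to 17749716 in the DXM group, so depth differed little between the groups. Rhy 1 stood apart. On the first principal component of the 500 most variable genes, which held 62.9% of the variance, it scored -68.9 and the other 5 libraries 5.81 to 35.1. Pairs that included Rhy 1 had common dispersions (edgeR's measure of variance between libraries beyond counting noise) of 0.186 to 0.323, against 0.0577 to 0.121 for the other pairs. Rhy 1 had no count of Hoxb13, a marker of the distal colon, which was at 197 to 320 CPM (counts scaled to the effective library size) in the other 5 libraries, and its immunoglobulin genes took 0.0224% of counts against 0.163% to 0.574% elsewhere. Rhy 3 alone was high in genes typical of the small intestine, with the disaccharidase Sis at 64.8 CPM against 0 to 1.17 in the other 5. Mitochondrially encoded genes took 23.8% of counts in Rhy 1 and 25.7% in DXM 1, against 7.48% to 15.2% in the remaining 4. For many results that leaned on 1 library, the value without that library is given beside them. The defining markers of colonic epithelium were high in all 6 libraries: the summed level of the 20 markers of colonocytes was 35252 to 43679 CPM in the Rhy colons and 23421 to 41690 CPM in the DXM colons.

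Of 54532 genes, 26476 had no count in these 6 libraries and 16090 passed the filter on low counts and were tested. After Benjamini-Hochberg adjustment, edgeR's quasi-likelihood test called 0 genes (0%) at the 0.05 threshold, and its lowest adjusted p was 0.803. Without adjustment, 767 genes had a p under 0.05 (4.77% of those tested), where 804 are expected by chance. They divided into 486 higher in DXM (3.02%) and 281 lower (1.75%), and the count was 315 when DXM 3 was left out. The 3 DXM values lay wholly above or below the 3 Rhy values for 1976 genes (12.3%), 1164 higher (7.23%) and 812 lower (5.05%). DESeq2 on the same counts called 27 genes at an adjusted p under 0.05, 11 higher and 16 lower in DXM, and listed 1045 at an unadjusted p under 0.05. limma on log2(FPKM + 1) called none, with 880 at an unadjusted p under 0.05. An exact permutation test of 3 samples against 3 cannot go below p = 0.1. Every difference below is therefore a measured difference between these 6 colons that did not pass edgeR's adjusted threshold. SE is a standard error derived from its fitted log2 fold change and the F statistic of its test. For 6 colons the direction of a gene list is given by the share of its members on each side and by its median log2 fold change (DXM minus Rhy), beside the median of -0.000117 and the 50% above 0 and 50% below 0 over all genes tested.

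**Figure D1:**
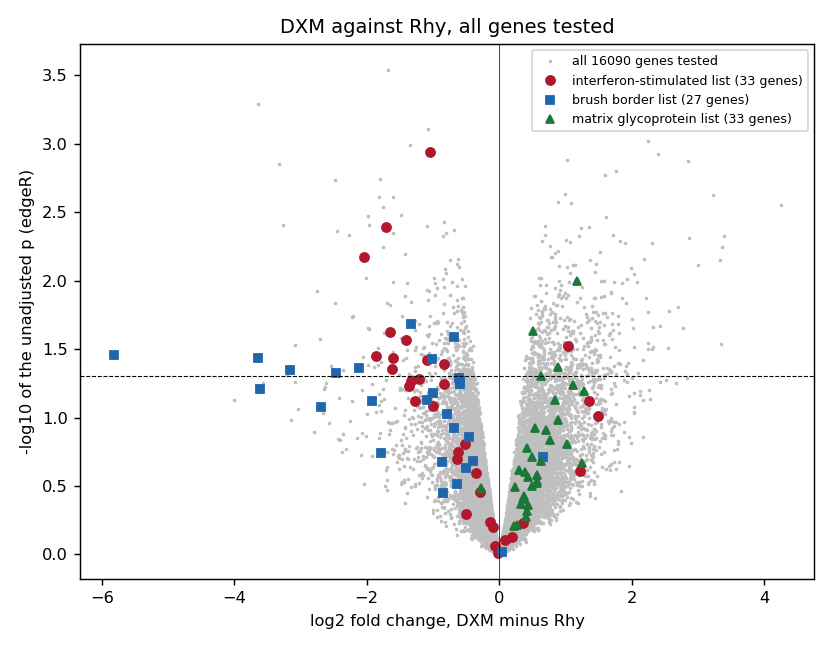
Log2 fold change, DXM minus Rhy (x axis), against -log10 of edgeR's unadjusted p (y axis, dashed line at 0.05) for the 16090 genes tested, with members of 3 gene lists in color. Most interferon-stimulated genes (26 of 33) and brush border genes (25 of 27) lie left of 0, and 32 of 33 matrix glycoprotein genes lie right of it.

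Interferon-stimulated genes were lower in the DXM colons. Of 33 listed genes, all tested, 26 had a log2 fold change below 0 and the median was -0.64. At an unadjusted p under 0.05, 10 were lower and 1 was higher, against 1.75% and 3.02% of all genes tested. The 3 DXM values lay below the 3 Rhy values for 7 members and above them for 1, against 5.05% and 7.23% of all genes. The 12 genes of smallest p on each side were chosen only among genes whose groups did not overlap. For them the lack of overlap is part of the choice and not a result. Among the 12 on the lower side, Zbp1 is a member of the list. Ifit1bl1, Ifi27l2a, Herc6 and Slfn5, which the list did not hold, belong to gene families that interferon induces. Promoter windows of 4 of these genes are shown because they carry the core of the interferon-stimulated response element, the site bound by STAT and IRF complexes. The windows run from 250 bases before to 50 after an annotated start and come from RefSeq on build GRCm38.p6, each written 5′ to 3′ on the strand of its gene, with capitals marking matches to GAAA, any 2 bases and GAAA on either strand, overlapping matches included. Isg15 is at chr4:156200769-156201068 on the minus strand with 3 overlapping matches. Oas3 is at chr5:120777610-120777909 on the minus strand with 1. Ifit1bl1 is at chr19:34601919-34602218 on the minus strand with 1. Slfn5 is at chr11:82951852-82952151 on the plus strand with 1.
Isg15: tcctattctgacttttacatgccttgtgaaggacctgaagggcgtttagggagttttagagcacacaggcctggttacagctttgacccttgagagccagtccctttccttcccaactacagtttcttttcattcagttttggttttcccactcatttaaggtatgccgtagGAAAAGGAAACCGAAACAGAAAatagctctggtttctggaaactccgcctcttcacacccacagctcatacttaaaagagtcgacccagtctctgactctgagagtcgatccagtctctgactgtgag
Oas3: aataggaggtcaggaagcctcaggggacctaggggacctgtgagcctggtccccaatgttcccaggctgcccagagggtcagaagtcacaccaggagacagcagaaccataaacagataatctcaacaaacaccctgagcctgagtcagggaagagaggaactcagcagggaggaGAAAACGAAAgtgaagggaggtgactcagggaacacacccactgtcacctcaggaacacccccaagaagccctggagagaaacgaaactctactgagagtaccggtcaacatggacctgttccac
Ifit1bl1: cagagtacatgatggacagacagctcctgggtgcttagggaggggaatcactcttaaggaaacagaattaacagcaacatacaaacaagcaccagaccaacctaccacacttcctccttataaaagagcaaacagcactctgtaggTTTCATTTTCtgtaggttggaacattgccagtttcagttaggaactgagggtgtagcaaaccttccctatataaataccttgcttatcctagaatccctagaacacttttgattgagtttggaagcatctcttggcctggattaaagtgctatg
Slfn5: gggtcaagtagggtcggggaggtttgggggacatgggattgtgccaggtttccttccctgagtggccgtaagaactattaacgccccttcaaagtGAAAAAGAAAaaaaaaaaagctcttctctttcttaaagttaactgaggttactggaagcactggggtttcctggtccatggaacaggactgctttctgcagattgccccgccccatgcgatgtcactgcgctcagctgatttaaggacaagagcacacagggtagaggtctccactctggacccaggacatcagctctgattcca

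These letters were found in 1131 of all 32851 promoter windows (3.44%). In the interferon-stimulated list, 25 of 33 genes had a window, and 17 of their 27 windows (63.0%) held a match. Of the 10 members lower at an unadjusted p under 0.05, 9 had a window, and 5 of their 11 windows (45.5%) held a match. These came from 5 genes, among them Isg15 and Oas3. The windows of Ifi44 and Herc6 did not hold these letters. A match describes the sequence and is not a measured binding site.

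Ifit1bl1, of the Ifit family of RNA-binding antiviral proteins, had the smallest p of the genes named by the rule on the lower side. It was at 635, 832 and 511 CPM in Rhy 1, 2 and 3 and at 244, 198 and 178 CPM in DXM 1, 2 and 3. A lack of overlap was a condition of that rule. The lowest Rhy colon was at 511 CPM and the highest DXM colon at 244 CPM. The log2 fold change was -1.67 (SE 0.27), which is 3.19-fold higher in Rhy, and DESeq2 gave an adjusted p of 2.29e-05. Ifit genes are near-copies of each other, so reads may have been divided among them.

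Zbp1, a sensor of Z-form nucleic acids that starts cell death, was at 116, 123 and 111 CPM in the Rhy colons and at 56.0, 69.1 and 44.4 CPM in the DXM colons. Its Rhy values were nearly equal, Rhy 1 included, and all 3 DXM values were lower. The log2 fold change was -1.04 (SE 0.21), with an adjusted p of 0.0309 in DESeq2. Isg15, a ubiquitin-like protein joined to other proteins during the interferon response, was at 288, 259 and 156 CPM in the Rhy colons and at 104, 75.4 and 35.1 CPM in the DXM colons. Again the groups did not overlap, and the log2 fold change was -1.71 (SE 0.42, adjusted p = 0.0329 in DESeq2).

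Herc6, which attaches Isg15 to target proteins in mice, was at 47.9, 27.9 and 30.0 CPM in the Rhy colons and at 15.5, 14.4 and 11.8 CPM in the DXM colons. Ifi27l2a, a small interferon-induced protein, was at 461, 196 and 102 CPM in the Rhy colons and at 38.9, 39.7 and 57.2 CPM in the DXM colons. Slfn5, of the Schlafen family, was at 64.5, 71.5 and 26.1 CPM in the Rhy colons and at 15.9, 18.3 and 18.8 CPM in the DXM colons. None of the 3 overlapped between the groups, which was a condition of their naming. The DXM values were close together, while the Rhy values spread widely for Ifi27l2a. Their log2 fold changes were -1.34, -2.48 and -1.61, and DESeq2 gave adjusted p-values of 0.0203, 0.00205 and 0.0323. Ifi44, at 61.9, 25.8 and 16.7 CPM in the Rhy colons and 10.4, 10.7 and 4.22 CPM in the DXM colons, and Oas3, a synthetase that activates RNase L, at 205, 101 and 77.9 CPM in the Rhy colons and 68.7, 39.8 and 14.3 CPM in the DXM colons, also did not overlap. Their log2 fold changes were -2.05 (SE 0.55) and -1.64 (SE 0.58), and neither was called by DESeq2.

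The list did not move as 1 block. Stat2, a transcription factor that carries the interferon signal, had a log2 fold change of -0.10 (SE 0.20). Gbp4, a guanylate-binding protein named here because it was the only member higher at an unadjusted p under 0.05, was at 3.90, 9.64 and 9.44 CPM in the Rhy colons and at 19.1, 17.3 and 11.3 CPM in the DXM colons (log2 fold change 1.05, SE 0.39). Cxcl10 was at 0.694 to 4.86 CPM in the Rhy colons and 0.828 to 6.03 CPM in the DXM colons, which overlapped.

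The summed level of the 33 genes was 3939, 2460 and 1786 CPM in Rhy 1, 2 and 3 and 1668, 1446 and 766 CPM in DXM 1, 2 and 3. Rhy 1 was highest and DXM 3 lowest, and the groups did not overlap. In bulk tissue, fewer cells of a type and less RNA per cell cannot be told apart. The summed level of the colonocyte markers was 43679, 35252 and 40095 CPM in Rhy 1, 2 and 3 and 41690, 23421 and 24161 CPM in DXM 1, 2 and 3. A single marker, Car1, gave 12065, 2073 and 7214 CPM of it in Rhy 1, 2 and 3 and 11176, 1181 and 512 CPM in DXM 1, 2 and 3. The part of the colonocyte markers in the interferon difference was not tested. Across all 12 libraries scaled together, the interferon sum was 1560 to 3213 CPM in the 3 control colons, a range that takes in values of both drug groups. Without Rhy 1 the list median was -0.49, with 3 members lower and 1 higher at an unadjusted p under 0.05 (1.18% and 2.03% of all genes in that fit). Without Rhy 3 it was -0.89 with 13 lower and 1 higher (2.88% and 3.71%), without DXM 1 it was -0.70, and without DXM 3 it was -0.46 with 6 lower and 3 higher (0.647% and 1.28%). The log2 fold changes of Ifit1bl1, Zbp1, Isg15, Herc6, Ifi27l2a and Slfn5 were below 0 in every setting tried. Their groups did not overlap, so leaving out a library could hardly turn these directions.

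**Figure D2:**
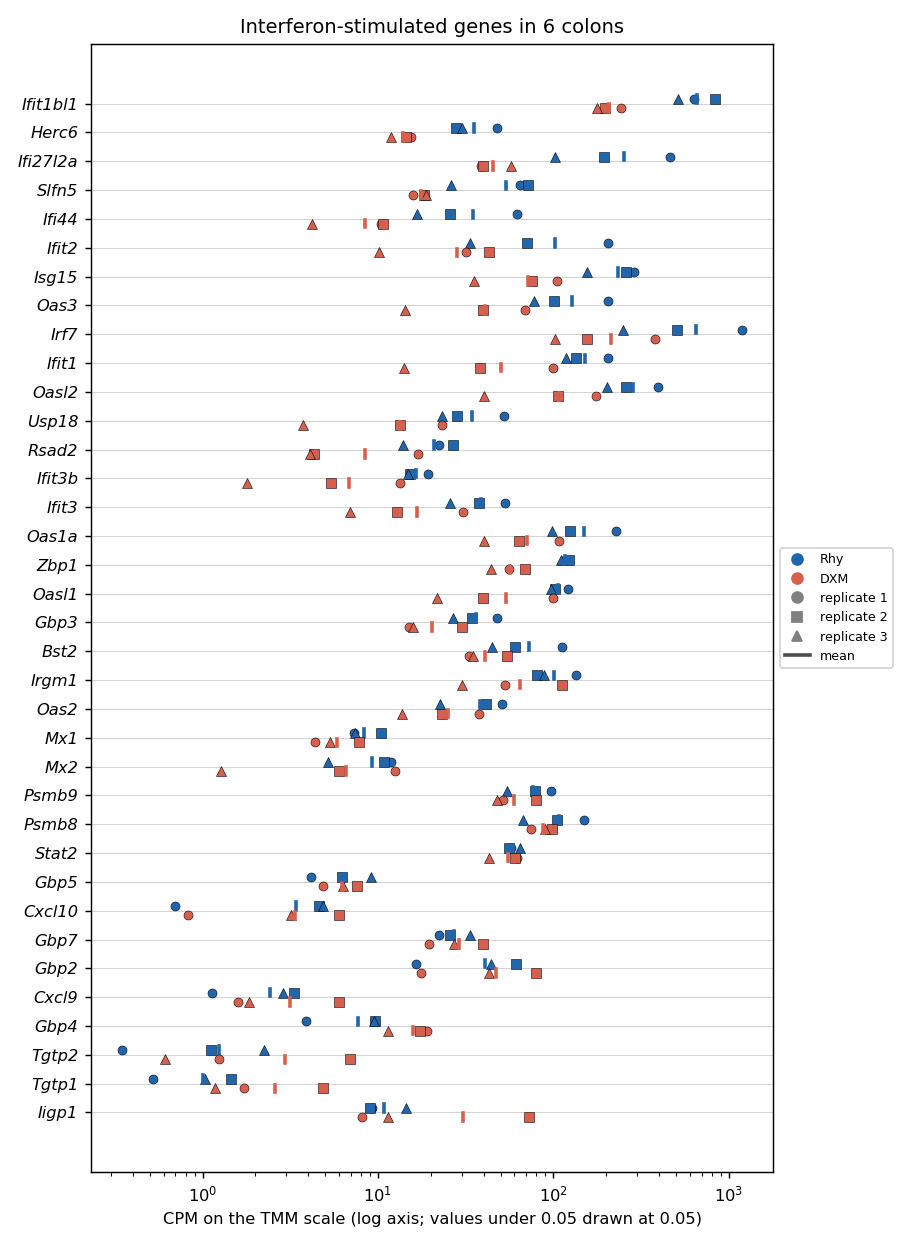
CPM on a log axis in each of the 6 colons (Rhy blue, DXM red, symbol for the replicate, bar for the mean) for 4 genes of smallest p outside the list and then 32 of the 33 listed interferon-stimulated genes, ordered by log2 fold change. Red points lie left of blue ones for most genes in the upper part, such as Isg15 (DXM 35.1 to 104, Rhy 156 to 288), and the order is lost or turned in the lower part, such as Gbp4.

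Genes of absorptive cells and of their metabolism were also lower in the DXM colons. Of 27 brush border genes tested from a list of 30, 25 had a log2 fold change below 0 and the median was -0.86, with 8 lower and none higher at an unadjusted p under 0.05, against 1.75% and 3.02% of all genes tested. Of 35 steroid and drug metabolism genes tested from a list of 40, 34 were below 0 and the median was -0.69, with 5 lower and none higher at the same threshold. Of 23 fatty acid oxidation and ketogenesis genes tested from 25, all were below 0, the median was -0.59 and 1 (Angptl4) was lower at an unadjusted p under 0.05. The 20 markers of colonocytes went the same way in 18 cases, with a median of -0.49, no member at an unadjusted p under 0.05, and 5 whose DXM values all lay below the Rhy values, against 5.05% of all genes.

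Cyp4f14, an omega-hydroxylase of fatty acids and eicosanoids, was at 77.9, 26.7 and 40.5 CPM in the Rhy colons and at 8.77, 4.48 and 1.37 CPM in the DXM colons. The lowest Rhy value was above the highest DXM value, and the log2 fold change was -3.32 (SE 0.68, adjusted p = 0.000183 in DESeq2). Slc13a1, a sodium-sulfate cotransporter, was at 52.6, 15.1 and 52.3 CPM in the Rhy colons and at 2.97, 8.47 and 0.967 CPM in the DXM colons. Each group was spread, and the log2 fold change was -3.26 (SE 0.80, adjusted p = 0.00321 in DESeq2). For Cyp4f14 and Slc13a1 the lack of overlap was a condition of their naming.

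Otc, an enzyme of the urea cycle, was at 25.7, 10.8 and 30.2 CPM in the Rhy colons and at 5.73, 8.37 and 5.65 CPM in the DXM colons. Hsd17b13, a lipid droplet dehydrogenase, was at 102, 36.2 and 55.2 CPM in the Rhy colons and at 11, 25.8 and 12.1 CPM in the DXM colons. Lrat, which esterifies retinol, was at 11.7, 4.09 and 5.66 CPM in the Rhy colons and at 2.35, 1.75 and 1.37 CPM in the DXM colons. For these 3 genes too the lack of overlap was a condition of naming. Their log2 fold changes were -1.75, -1.97 and -1.97, and each was called by DESeq2 with adjusted p-values of 0.0309, 0.0258 and 0.0461. Ces2e, a carboxylesterase, and Ugt1a1, which conjugates bilirubin and drugs, had log2 fold changes of -1.69 (SE 0.54) and -2.70 (SE 0.98). Ugt1a1 rested largely on Rhy 1, at 21.3 CPM against 2.51 and 3.09 in Rhy 2 and 3, with a log2 fold change of -1.05 without it, and exons shared among Ugt1a genes make its counts uncertain. Sprr2a1, a cornified envelope protein with near-identical copies, was at 443, 612 and 276 CPM in the Rhy colons and at 79.2, 164 and 139 CPM in the DXM colons (log2 fold change -1.80, adjusted p = 0.00687 in DESeq2).

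At the brush border, Mep1b, a subunit of the metalloprotease meprin, was at 258, 166 and 123 CPM in the Rhy colons and at 118, 62.5 and 36.0 CPM in the DXM colons. Slc5a1, the sodium-glucose cotransporter, was at 201, 150 and 170 CPM in the Rhy colons and at 103, 140 and 80.7 CPM in the DXM colons. Neither overlapped, and the log2 fold changes were -1.34 (SE 0.46) and -0.69 (SE 0.25). Sis and Slc6a19, an amino acid transporter, gave large log2 fold changes of -5.82 and -3.64, which rested on Rhy 3. Slc6a19 was at 1.30, 2.77 and 51.7 CPM in the Rhy colons and at 3.04, 1.22 and 0.305 CPM in the DXM colons, and without Rhy 3 its log2 fold change was -0.45 and that of Sis was -0.44. The peptidases Anpep and Enpep, named after their values were seen, were at 585 and 186 CPM in Rhy 3 and at most at 26.1 and 16 CPM in the other 5 libraries. Without Rhy 3 the brush border median was -0.57, with 4 members lower at an unadjusted p under 0.05, against 2.88% of all genes.

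The metabolic lists leaned on Rhy 1. Without it the median was -0.36 for steroid and drug metabolism (30 of 35 below 0, against 49.8% of all genes) and -0.05 for fatty acid oxidation and ketogenesis (14 of 23 below 0), while the brush border median was -0.82 (26 of 28 below 0), with 11 members lower at an unadjusted p under 0.05 against 1.18% of all genes. Without DXM 1 the medians were -1.36 for the brush border, -0.88 for steroid and drug metabolism and -0.78 for fatty acid oxidation. In the same order they were -0.90, -0.66 and -0.60 without DXM 2 and -0.66, -0.48 and -0.35 without DXM 3. Without DXM 2, 1 brush border member was lower at an unadjusted p under 0.05, where 285 of 16461 genes were. Without DXM 3, 2 brush border and 2 steroid and drug metabolism members were lower, against 0.647% of all genes. The summed level of the fatty acid oxidation list was 9799 CPM in Rhy 1, 2764 and 3569 CPM in Rhy 2 and 3, and 1679 to 4123 CPM in the DXM colons. The brush border sum was 5228 to 6237 CPM in the Rhy colons and 2712 to 4789 CPM in the DXM colons, without overlap. Krt20, a keratin of mature surface colonocytes, was at 1527, 1584 and 1451 CPM in the Rhy colons and at 1331, 844 and 373 CPM in the DXM colons, and Vil1, the microvillus protein villin, at 846, 810 and 900 CPM and at 740, 494 and 448 CPM. Both were lower in each DXM colon, nearest to the Rhy range in DXM 1, with log2 fold changes of -0.84 and -0.60. The part of these markers in the metabolic and brush border differences was not tested.

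**Figure D3:**
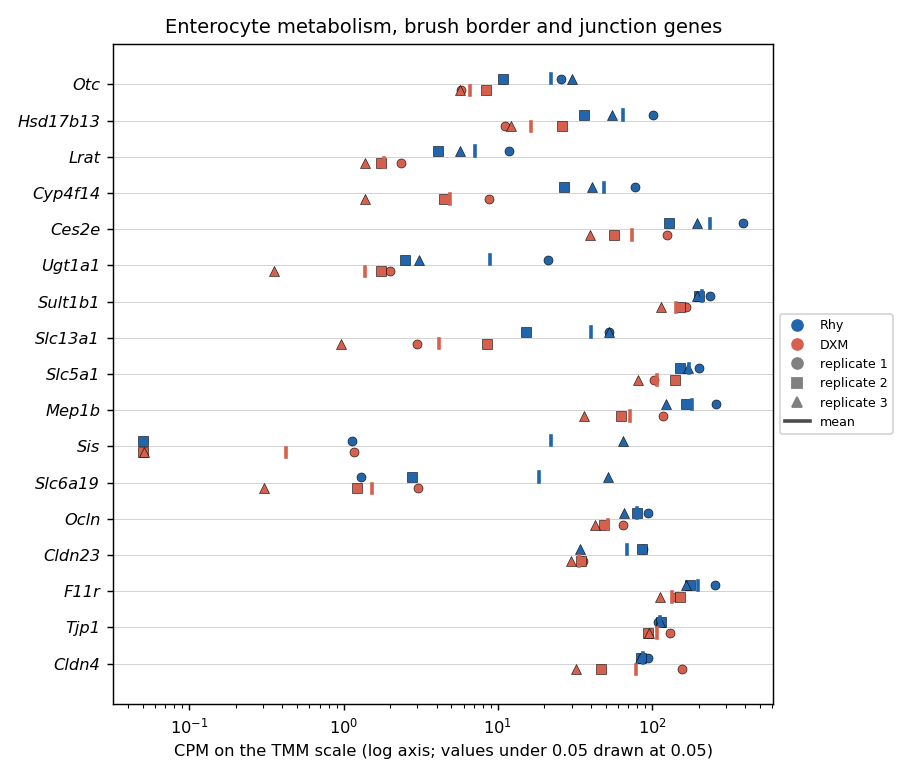
CPM on a log axis in each of the 6 colons (Rhy blue, DXM red, symbol for the replicate, bar for the mean) for enzymes, transporters and junction proteins of absorptive cells. DXM points lie left of Rhy points for Otc (5.65 to 8.37 against 10.8 to 30.2) and the other enzymes, while the means of Sis and Slc6a19 are set by Rhy 3 alone.

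Of 24 tight junction genes tested from a list of 25, 18 had a log2 fold change below 0 and the median was -0.24, with 3 lower and none higher at an unadjusted p under 0.05, against 1.75% and 3.02% of all genes tested. The number lower was 0 without DXM 3, 0 without Rhy 2 and 5 without DXM 1, where 106, 363 and 608 of all genes were lower. The median stayed below 0 in every setting tried. Ocln, which encodes occludin, was at 93.3, 79.1 and 65.9 CPM in the Rhy colons and at 64.7, 48.4 and 42.8 CPM in the DXM colons. The groups met without overlapping, and the log2 fold change was -0.61 (95% interval -1.13 to -0.09). F11r, the junctional adhesion molecule A, was at 254, 177 and 165 CPM in the Rhy colons and at 140, 150 and 113 CPM in the DXM colons (log2 fold change -0.56, SE 0.24), and Cldn23, a claudin, overlapped between the groups (log2 fold change -1.05, SE 0.35). Tjp1, which encodes ZO-1, was at 110, 114 and 113 CPM in the Rhy colons and at 130, 94.0 and 96.0 CPM in the DXM colons. Its DXM values lay on both sides of the Rhy values (log2 fold change -0.07, SE 0.19). Cldn4, which encodes claudin 4, was at 94.0, 85.1 and 83.3 CPM in the Rhy colons and at 156, 46.5 and 32.2 CPM in the DXM colons. The Rhy values were alike and the DXM values spread above and below them (log2 fold change -0.16, SE 0.54), and the direction of both Tjp1 (0.0075) and Cldn4 (0.10) turned when DXM 2 was left out, and that of Cldn4 (0.21) also without DXM 3.

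Glucocorticoid target genes lay on both sides of 0. The receptor gene Nr3c1 was at 130, 56.6 and 83.6 CPM in the Rhy colons and at 64.2, 68.6 and 57.4 CPM in the DXM colons (log2 fold change -0.51, SE 0.30, and -0.15 without Rhy 1). Of 30 glucocorticoid target genes, all tested, 16 were above and 14 below 0 and the median was 0.02, with 1 higher and 2 lower at an unadjusted p under 0.05, against 3.02% and 1.75% of all genes tested. Of 10 genes of the receptor system tested from 12, 8 were below 0 with a median of -0.21, and none was at an unadjusted p under 0.05.

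Tsc22d3, which encodes the anti-inflammatory leucine zipper GILZ, was at 74.6, 140 and 119 CPM in the Rhy colons and at 70.3, 73.7 and 65.7 CPM in the DXM colons. All 3 DXM values were just below the lowest Rhy value, that of Rhy 1, and the log2 fold change was -0.67 (95% interval -1.25 to -0.09). Zbtb16, which encodes the transcription factor PLZF, was at 0.868, 1.52 and 1.43 CPM in the Rhy colons and at 1.52, 3.21 and 3.61 CPM in the DXM colons. Here the DXM values were higher, with DXM 1 level with Rhy 2, at low counts (log2 fold change 1.12, SE 0.47). Angptl4, an inhibitor of lipoprotein lipase, was at 21.0, 3.50 and 10.4 CPM in the Rhy colons and at 6.07, 3.80 and 2.39 CPM in the DXM colons, which overlapped (log2 fold change -1.51, SE 0.64, and -0.79 without Rhy 1).

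Fkbp5, a co-chaperone of the receptor, was at 321, 120 and 102 CPM in the Rhy colons and at 148, 194 and 107 CPM in the DXM colons. Rhy 1 was the highest of the 6, and the log2 fold change went from -0.27 (SE 0.46) to 0.43 when it was left out. Per1, a clock gene, was at 61.8, 43.3 and 33.0 CPM in the Rhy colons and at 52.0, 56.9 and 71.8 CPM in the DXM colons, and Sgk1, a kinase that acts on sodium channels, at 343, 353 and 258 CPM and at 320, 214 and 163 CPM. Both overlapped between the groups, with log2 fold changes of 0.39 and -0.45. Dusp1, a MAP kinase phosphatase, was at 29.4, 45.9 and 51.8 CPM in the Rhy colons and at 71.0, 30.4 and 132 CPM in the DXM colons, which overlapped (log2 fold change 0.88, SE 0.49, and 0.25 without DXM 3). Klf9 overlapped too (log2 fold change -0.12, SE 0.29). The time between the last dose and sampling is not given in the sources used here.

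Cyp1a1 was the gene of smallest p in the AhR list, and it was higher in the DXM colons. It was at 19.8, 25.5 and 16.5 CPM in the Rhy colons and at 24.8, 144 and 55.1 CPM in the DXM colons. DXM 1 lay within the range of the Rhy colons and DXM 2 and 3 above it, and the log2 fold change was 1.86 (SE 0.58). Without DXM 2 the log2 fold change was 0.96, and over all alternatives it was 0.96 to 2.27. Across all 12 libraries scaled together, Cyp1a1 was at 0.0749, 254 and 10.4 CPM in the 3 control colons, a spread wider than that of either drug group. The receptor gene Ahr was at 16.5, 20.6 and 23.4 CPM in the Rhy colons and at 15.7, 17.0 and 23.8 CPM in the DXM colons, which overlapped (log2 fold change -0.10, SE 0.24). Nqo1, a quinone reductase, was at 118, 35.7 and 43.1 CPM in the Rhy colons and at 32.2, 41.6 and 9.62 CPM in the DXM colons (log2 fold change -1.24, SE 0.62, and -0.51 without Rhy 1). Of 11 AhR genes tested from 13, 1 was higher and none lower at an unadjusted p under 0.05, against 3.02% and 1.75% of all genes tested, and the median was -0.09.

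Immediate early genes, which answer growth factor and stress signals within minutes, had a median of 0.33 over 22 genes. At an unadjusted p under 0.05, 1 was higher and none lower, close to the 3.02% and 1.75% of all genes tested. Nr4a1, a nuclear receptor of this class, was at 11.4, 34.1 and 64.2 CPM in the Rhy colons and at 25.5, 25.7 and 222 CPM in the DXM colons. DXM 3 was far above the other 5, and the log2 fold change went from 1.32 (SE 0.95) to -0.52 when it was left out. Egr1, Egr2 and Egr3, zinc finger factors of the same response, had log2 fold changes of 0.95, 1.69 and 1.57. Egr1 was at 12.8, 29.4 and 59.3 CPM in the Rhy colons and at 56.1, 63.1 and 77.9 CPM in the DXM colons, which overlapped, and Egr2 (SE 0.71) did not overlap but stayed at or below 2.14 CPM. Egr2 and Egr3 passed the filter on low counts only with their DXM values. Without DXM 3 the list median was -0.20.

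Inflammation genes that passed the filter were mostly higher with DXM, and most were low in all 6 colons. Of 40 genes of NF-kB signaling and acute inflammation, 22 passed the filter, 19 of them were above 0 and the median was 0.85, with 3 higher and none lower at an unadjusted p under 0.05, against 3.02% and 1.75% of all genes tested. The acute-phase gene Saa1, named after its values were seen, had the highest counts of the list, at 455, 2662 and 860 CPM in the Rhy colons and at 1588, 1193 and 2489 CPM in the DXM colons, which overlapped (log2 fold change 0.41, SE 0.63). Cxcl1, a neutrophil-attracting chemokine, was at 0.174, 0.462 and 0.801 CPM in the Rhy colons and at 1.31, 3.55 and 6.01 CPM in the DXM colons. All DXM values were higher, and the log2 fold change was 2.86 (SE 0.73). Ccl2, a monocyte-attracting chemokine, was at 0.26, 1.32 and 1.89 CPM in the Rhy colons and at 2.07, 4.33 and 11.3 CPM in the DXM colons, again without overlap (log2 fold change 2.32, SE 0.81, and 1.44 without DXM 3). Osm, a cytokine of the interleukin 6 family, was at 0.396 to 0.515 CPM in the Rhy colons and at 0.73 to 1.37 CPM in the DXM colons (log2 fold change 1.17, SE 0.48). Osm passed the filter on low counts only through its DXM values. Cxcl1 and Ccl2 passed it only with their DXM values, since Rhy 1 and 2 were too low for Cxcl1 and Rhy 1 for Ccl2. So all 3 members higher at an unadjusted p under 0.05 needed their DXM values to be tested. The counts and the median of the list include such members, and the part of the filter in its direction was not tested.

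Tnf was at 0.347, 2.24 and 0.915 CPM in the Rhy colons and at 1.73, 3.16 and 2.54 CPM in the DXM colons, and Il1b at 1.04, 3.37 and 3.60 CPM and at 2.00, 4.82 and 8.50 CPM. Both overlapped, with log2 fold changes of 1.07 and 0.93. Tnf too passed the filter only with its DXM values, since Rhy 1 was too low. Il6 and Mpo, the granule enzyme of neutrophils, did not pass the filter and were at 0 to 0.407 CPM in the 6 libraries. The median of the list without Rhy 1 was 0.67, without Rhy 3 it was 1.20 and without DXM 3 it was 0.46. Only 4 of 15 neutrophil markers passed the filter, and Ly6g, which held most of their counts, was at 24.6, 326 and 148 CPM in the Rhy colons and at 198, 206 and 272 CPM in the DXM colons, which overlapped. The summed level of 17 macrophage markers was 308 to 726 CPM in the Rhy colons and 622 to 1047 CPM in the DXM colons, and their part in the differences of the inflammation genes was not tested.

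**Figure D4:**
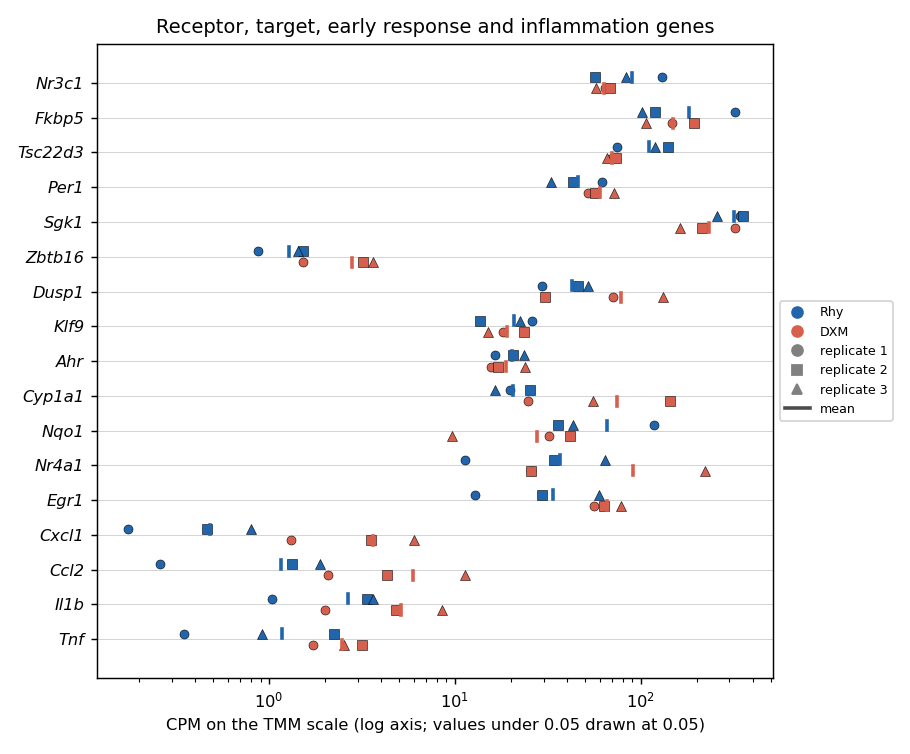
CPM on a log axis in each of the 6 colons (Rhy blue, DXM red, symbol for the replicate, bar for the mean) for the glucocorticoid receptor gene and its targets, AhR and its targets, early response genes and inflammation genes. The groups interleave for Fkbp5, Per1 and Ahr, DXM 2 and DXM 3 lie right of all Rhy points for Cyp1a1 (144 and 55.1 against 16.5 to 25.5), and all DXM points lie right of the Rhy points for Cxcl1 (1.31 to 6.01 against 0.174 to 0.801).

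By log2 fold change, genes of connective tissue, muscle and vessels were on the whole higher in the DXM colons, though the sums of DXM 2 were below those of some Rhy colons. Of 33 matrix glycoprotein and remodelling genes, 32 were above 0 with a median of 0.51, and 4 were higher and none lower at an unadjusted p under 0.05, against 3.02% and 1.75% of all genes tested. All 19 collagen genes were above 0 (median 0.58, 1 higher), as were all 18 endothelial markers (median 0.60, none at an unadjusted p under 0.05). Of 22 smooth muscle markers 20 were above 0 (median 0.34, 1 higher), and of 22 Hedgehog genes tested from 24 also 20 (median 0.46, 1 higher). A single member of 19 or 22 is close to the 3.02% of all genes. The DXM values all lay above the Rhy values for 3 matrix, 1 collagen, 0 endothelial, 2 smooth muscle and 4 Hedgehog genes, against 7.23% of all genes. Emilin1, a glycoprotein of elastic fibres, was at 32.0, 33.2 and 33.8 CPM in the Rhy colons and at 61.6, 55.7 and 64.8 CPM in the DXM colons. Both groups were tight, Rhy 1 included, and the log2 fold change was 0.88 (SE 0.15, adjusted p = 0.0385 in DESeq2).

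Thbs2, a matricellular protein, was at 3.99, 9.11 and 8.64 CPM in the Rhy colons and at 17.1, 13.9 and 18.5 CPM in the DXM colons. Col16a1, a collagen associated with fibrils, was at 22.4, 35.0 and 36.9 CPM in the Rhy colons and at 69.5, 40.0 and 70.3 CPM in the DXM colons. Fbln1, the matrix protein fibulin 1, was at 48.5, 46.2 and 50.5 CPM in the Rhy colons and at 63.4, 61.0 and 81.6 CPM in the DXM colons. None of the 3 overlapped, and the log2 fold changes were 1.18 (SE 0.35), 0.93 (SE 0.29) and 0.51 (SE 0.18). In smooth muscle, Lmod1, an actin nucleator, had a log2 fold change of 0.58 (SE 0.21) without overlap. In the Hedgehog list, Foxf1, a target expressed in gut mesenchyme, had a log2 fold change of 0.66 (SE 0.27) with overlap, and Gas1, a co-receptor, 0.80 (SE 0.35) without. In enteric glia, Gfap was at 2.00 to 2.71 CPM in the Rhy colons and 4.07 to 11.7 CPM in the DXM colons (log2 fold change 1.49, SE 0.50, and 0.80 without DXM 1), and the sodium channel gene Scn7a had a log2 fold change of 0.62 (SE 0.19), while the list of 21 neuron and glia genes tested from 22 had a median of 0.06.

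Leaving out Rhy 1 lowered these medians to 0.20 for the matrix and 0.20 for the collagen lists. It lowered them to 0.33 for the endothelial, 0.28 for the smooth muscle and 0.26 for the Hedgehog lists. Leaving out Rhy 3 raised the matrix and collagen medians to 0.88 and 1.01. The summed matrix level was 1260 to 2838 CPM in the Rhy colons, lowest in Rhy 1, and 1918 to 3934 CPM in the DXM colons, lowest in DXM 2, so the groups overlapped. The smooth muscle sum was 10554 to 11428 CPM in the Rhy colons and 14038, 9409 and 15592 CPM in DXM 1, 2 and 3. The collagen and endothelial sums of DXM 2, 1331 and 189 CPM, were above Rhy 1 only. The epithelial marker sums given above were below the Rhy colons in DXM 2 and 3, at 23421 and 24161 CPM, and not in DXM 1. In DXM 1 the single marker Car1 gave 11176 CPM of the sum, so that exception leaned on 1 gene. The share of each tissue layer in the sections was not tested.

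Markers of B cells were higher with DXM in all 17 tested genes of a list of 18 (median 0.98), with none at an unadjusted p under 0.05 and 7 whose groups did not overlap, against 7.23% of all genes on that side. Their summed level was 15.2 CPM in Rhy 1, 292 and 314 CPM in Rhy 2 and 3, and 354 to 440 CPM in the DXM colons. Cr2, the complement receptor of B and follicular dendritic cells, was at 0, 7.39 and 7.84 CPM in the Rhy colons and at 16.8, 18.3 and 14.8 CPM in the DXM colons, and Cd22, an inhibitory receptor of B cells, at 0.521, 8.45 and 10.6 CPM and at 27.7, 13.4 and 12.4 CPM. Neither overlapped between the groups, and both passed the filter on low counts only with their DXM values, since Rhy 1 was too low. Without Rhy 1 the list median was 0.45 with 2 members higher at an unadjusted p under 0.05 (2.03% of all genes in that fit). T and NK cell markers (20 tested of 22) had a median of 0.54, macrophage markers 0.75 and plasma cell markers 0.41, and those were 0.22, 0.31 and -0.01 without Rhy 1. The 22 goblet cell genes had a median of 0.53 and none was listed at an unadjusted p under 0.05.

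By their p-values, 12 genes were named on the higher side, Emilin1 among them, all chosen from genes whose groups did not overlap. Gdpd3, a lysophospholipase D, was at 0.174, 0.792 and 0.4 CPM in the Rhy colons and at 1.22 to 15.9 CPM in the DXM colons (log2 fold change 4.26, SE 0.98, adjusted p = 0.00146 in DESeq2). It passed the filter on low counts only with its DXM values. Across all 12 libraries scaled together, it was at 0.823 to 23.0 CPM in the control colons. In the colons given DSS without a drug it was at 0.179 to 17.2 CPM. The spread within each of these groups was wider than that of the DXM colons. Plcd3, a phospholipase C, was at 1.74, 2.71 and 2.63 CPM in the Rhy colons and at 6.83, 8.86 and 5.95 CPM in the DXM colons (log2 fold change 1.61, adjusted p = 0.0309 in DESeq2). Alpk1, a kinase that senses a bacterial sugar, was at 3.99, 4.49 and 4.75 CPM in the Rhy colons and at 24.4, 10.9 and 8.35 CPM in the DXM colons (log2 fold change 1.72, SE 0.43, and 1.12 without DXM 1). The DXM colon that was highest differed from gene to gene.

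The nuclear long noncoding RNA Neat1 was at 303, 483 and 443 CPM in the Rhy colons and at 1071, 676 and 1137 CPM in the DXM colons (log2 fold change 1.23, SE 0.30). Firre, another nuclear noncoding RNA, was at 32.0, 40.6 and 42.9 CPM in the Rhy colons and at 92.5, 64.3 and 78.7 CPM in the DXM colons (log2 fold change 1.03, SE 0.21). Neither overlapped, a condition of their naming, and neither was called by DESeq2. Polr2k, a small RNA polymerase subunit, and Rpl30, a ribosomal protein with many pseudogene copies, had log2 fold changes of 2.25 and 1.77 and adjusted p-values of 0.00205 and 0.00818 in DESeq2, and counts of both may be divided with copies. Rpl30 was at 85.7 to 120 CPM in the Rhy colons and 174 to 448 CPM in the DXM colons. Across all 12 libraries scaled together, it was at 6.31 to 322 CPM in the control colons. Mecr, Impact, Sfi1 and Ttll10, named by the same rule, had log2 fold changes of 0.69 to 1.08.

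Among clock genes, Cry1, a repressor of the clock, was at 38.7, 43.2 and 40.3 CPM in the Rhy colons and at 16.6, 26.6 and 24.8 CPM in the DXM colons. All DXM values were lower, with a log2 fold change of -0.85 (SE 0.21), and the clock list of 19 genes had a median of 0.21 with no other member at an unadjusted p under 0.05. Dbp, a clock output factor, was at 62.5, 45.0 and 15.5 CPM in the Rhy colons and at 111, 85.0 and 63.7 CPM in the DXM colons, where DXM 3 and Rhy 1 nearly met (log2 fold change 1.08, SE 0.47). The hour at which each colon was taken is not given in the sources used here, and its part in these values was not tested. Axin2, a target and inhibitor of Wnt signaling, was at 17.7, 25.6 and 23.5 CPM in the Rhy colons and at 13.8, 13.8 and 10.8 CPM in the DXM colons (log2 fold change -0.80, SE 0.23), and the 20 stem cell and Wnt genes tested from 23 had a median of -0.04. The 43 mitotic genes had a median of 0.01, with 22 above and 21 below 0, and of the 32 DNA replication genes 25 were below 0, with a median of -0.16. None of either list was at an unadjusted p under 0.05. Both medians moved with single libraries. The mitotic median was -0.50 without DXM 2 (40 of 43 below 0) and 0.31 without Rhy 3 (40 of 43 above 0), and the DNA replication median was -0.44 without Rhy 1 (31 of 32 below 0) and 0.09 without DXM 1 (26 of 32 above 0).

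Among 16 aldosterone and sodium transport genes tested from 17, 1 was lower at an unadjusted p under 0.05 and none higher, against 1.75% and 3.02% of all genes tested. The median was -0.55, and -0.23 without Rhy 1. Atp1b1, a subunit of the sodium pump, was at 1287, 941 and 731 CPM in the Rhy colons and at 537, 768 and 496 CPM in the DXM colons, which overlapped (log2 fold change -0.72, SE 0.30). Scnn1g, the gamma subunit of the epithelial sodium channel, went the other way, at 0, 1.98 and 5.66 CPM in the Rhy colons and at 41.1, 4.23 and 10.7 CPM in the DXM colons, with DXM 2 below Rhy 3 (log2 fold change 2.83, SE 1.23, and 1.52 without DXM 1). Scnn1g passed the filter on low counts only with its DXM values. Duox2, an epithelial oxidase, was at 127, 142 and 65.3 CPM in the Rhy colons and at 45.8, 84.4 and 55.3 CPM in the DXM colons (log2 fold change -0.85, SE 0.35), and Il6ra, a subunit of the interleukin 6 receptor, at 2.52, 4.62 and 5.78 CPM and at 8.70, 7.06 and 12.2 CPM without overlap (log2 fold change 1.10, SE 0.39).

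**Figure D5:**
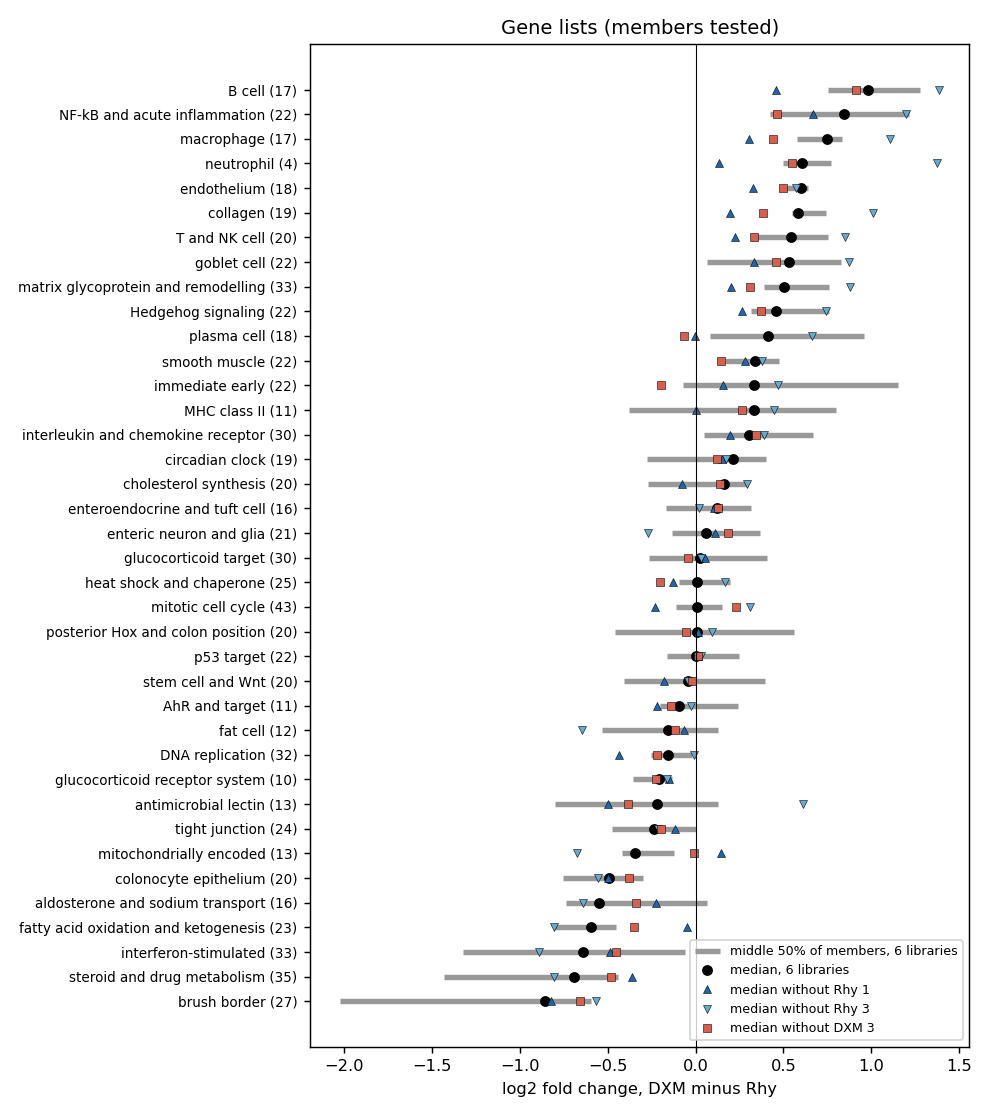
Median log2 fold change, DXM minus Rhy (x axis), of the tested members of each gene list (number in brackets), for all 6 libraries (black, with the middle 50% of members in grey) and without Rhy 1, Rhy 3 or DXM 3. Brush border (-0.86), steroid and drug metabolism (-0.69) and interferon-stimulated genes (-0.64) lie lowest and B cell markers (0.98) highest, and the symbols without Rhy 1 lie closer to 0 for the matrix, collagen and fatty acid oxidation lists.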

How the data were processed

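RNA-Seq of colonic tissue was compared between 3 DXM and 3 Rhy libraries, grouped by the treatment label. Per the labels, an mRNA library was made from total RNA, and the submitters' processing notes name HISAT2 2.0.5, featureCounts 1.5.0-p3, DESeq2 1.16.1 and mm10. The strand setting is not given in the sources used here, so antisense and overlapping genes are uncertain. The authors deposited whole counts per gene without normalization. Deposited FPKM, also made by the authors, are these counts divided by gene length and a scaled library size, and were used only with limma (log2 of FPKM plus 1 or 0.1). Gene coordinates in the deposited table equal GENCODE M21 (GRCm38) for 98.3% of shared identifiers. The RNA-Seq methods of the study do not name the DXM group.

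The tests ran on counts with edgeR 4.0.16 under R 4.3.3 (TMM scaling, filterByExpr at a minimum count of 10, estimateDisp, glmQLFit, glmQLFTest, two-sided, Benjamini-Hochberg adjustment over all genes tested). DESeq2 1.42.0 and limma 3.58.1 were alternatives, with other scalings, filters, sample sets, a replicate block and each library left out. CPM values carry no prior count. Standard errors are of the fitted log2 fold change, and depth was 14346478 to 17749716 counts a library, which bears on low genes only. The scripts were tested on simulated data. The 39 gene lists (891 entries, 889 in the table, 804 tested) were written from general knowledge, and lists and genes were chosen with earlier results of these data known. Named genes are the 12 of smallest p in each direction with an official symbol, no overlap between groups and a mean of at least 5 CPM in the higher group, up to 4 of smallest p in each list, and 20 fixed genes. Other names were chosen after their values were seen. Lists were described by counts and medians without a set test. No sample column lay outside the sample list. Promoter windows were taken from RefSeq (GRCm38.p6). Some single genes are not reported here.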

Additional observations from a re-analysis of the deposited data

How the results depend on the processing

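With 3 libraries a group, 1 of them (Rhy 1) far from the rest, the common dispersion was 0.13, and 18 alternatives were run. In edgeR and limma the count of genes at an adjusted p under 0.05 was 0 in all of them, and DESeq2 called 27. Genes at an unadjusted p under 0.05 were 767 in the main analysis, 1333 with all genes that had any count, and 315 (without DXM 3) to 1089 (without Rhy 3) when a library was left out (536 without Rhy 1). No other alternative moved that count by over 1.5 times except the replicate block. Deviations of same-numbered libraries correlated at 0.22, -0.15 and 0.36, and those of libraries with other numbers at -0.43 to 0.23. So few pairs cannot decide whether replicate numbers pair the samples. The replicate block gave 1171 genes and 0 adjusted calls. The share higher in DXM was 63.4%, against 78.2% with upper-quartile scaling, which moved the median of all genes by 0.08, 46.1% with the replicate block and 32.1% without DXM 1. Of 103 genes, 90 kept their direction throughout. Part of them were named on condition that their groups did not overlap, and leaving out a library could hardly turn those. The exceptions, with the range of the log2 fold change when a library was left out, were Tjp1 (-0.24 to 0.0075), Cldn4 (-1.16 to 0.21), Fkbp5 (-0.56 to 0.43), Klf9 (-0.36 to 0.067), Ahr (-0.30 to 0.021), Nr4a1 (-0.52 to 2.00), Hoxb13 (-0.35 to 0.90), Enpep (-2.99 to 0.031), Anpep (-4.20 to 1.16), Cxcl10 (-0.75 to 0.43), Ly6g (-0.082 to 1.37), Saa1 (-0.015 to 1.40) and Stat2 (-0.20 to 0.050). Tjp1 was also at 0.0068 and Cxcl10 at 0.039 with upper-quartile scaling. The cause was not tested. Of 38 list medians, 23 kept their sign throughout.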

Other observations

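Gene classes outside the lists differed in direction. Of 803 noncoding genes tested (antisense, lincRNA, processed transcript and related classes, Neat1 and Firre among them), 573 had a log2 fold change above 0, with 53 higher and 4 lower in DXM at an unadjusted p under 0.05 (6.60% and 0.498%, against 3.02% and 1.75% of all genes tested). Of 618 processed pseudogenes, 187 were above 0, with 5 higher and 23 lower (0.809% and 3.72%). For the 14216 protein-coding genes tested, 399 were higher and 249 lower (2.81% and 1.75%). Strand was not stated for the counting, so antisense genes cannot be told apart from the genes they overlap.

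Variable segments of antibody genes were mostly higher in DXM. Of 66 IG_V genes tested, 56 were above 0 with a median of 0.95. At an unadjusted p under 0.05, 9 were higher (13.6%, against 3.02% of all genes tested) and none lower. Rhy 1 had the lowest share of immunoglobulin counts, and the values of this class without it were not computed. The part of the filter on low counts in the direction of the class was not tested. DESeq2 called 3 (Igkv6-25, Igkv12-41 and Igkv4-91, named after their values were seen). These 3 were at 0 to 0.801 CPM in the Rhy libraries and passed edgeR's filter only with their DXM values. Immunoglobulin genes took 0.0224%, 0.447% and 0.27% of counts in Rhy 1, 2 and 3 and 0.272%, 0.163% and 0.574% in DXM 1, 2 and 3, which overlapped.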
